A study of Mus musculus with 49 samples.

Results

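Chaperone and heat shock genes encode the proteins that fold, refold and sort other proteins. They were described here across mouse fibroblasts infected with reprogramming factors and across pluripotent stem cell lines. A gene was taken as a member where its current symbol is that of a heat shock protein, heat shock factor 1 or 2, a J-domain protein, a subunit of the cytosolic chaperonin CCT or 1 of the BAG proteins. The choice used symbols alone and no measured value. It found 83 of the 13852 genes named on the array, through 99 probes, and the probe with the highest mean over all arrays stood for each of the 14 genes with several probes. The members comprised the J-domain genes (4 of class A, 12 of class B and 27 of class C), 10 HSP70 genes, 3 HSP110 genes, 2 HSP90 genes, 8 CCT subunits, 7 small heat shock protein genes, 6 BAG genes and 2 heat shock factors. The last 2 members were Hspe1, the cofactor of the mitochondrial chaperonin, and Hspg2, which matched by symbol only and encodes perlecan, a proteoglycan of the extracellular matrix. Hspa8, Hsp90aa1 and Hspd1 were not analysed here. Hspa1a and Hspa1b are near-identical copies, so a value of either may hold signal of the other.

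HSP70 proteins bind exposed hydrophobic stretches of unfolded proteins in a cycle driven by ATP. J-domain proteins bring clients to HSP70 and start ATP hydrolysis, and HSP110 and BAG proteins release the nucleotide and so end the cycle. HSP90 receives clients from HSP70 at a late stage of folding, small heat shock proteins hold unfolded clients without ATP, and the ring-shaped chaperonin CCT folds actin, tubulin and other clients that prefoldin hands to it. Heat shock factors bind repeats of the letters NGAAN, the heat shock element, and induce many of these genes under stress. BiP (Hspa5), GRP94 (Hsp90b1) and several J-domain proteins work in the endoplasmic reticulum (ER), where the unfolded protein response induces them. Pluripotent stem cells are known for high protein synthesis and for a high capacity of folding and quality control.

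Expression was measured on 49 one-colour arrays labelled with Cy5 in 23 groups, 20 with 2 arrays and 3 with 3. The fibroblasts (MEF) came from limb and tail skin of female OGXICR embryos at D13.5, and factors were delivered to them on doxycycline-inducible lentivirus. SOX2, KLF4 and MYC (SKM) were combined with OCT4, GATA6, SOX7, PAX1, CEBPa, HNF4a, GRB2 or MIXL1 on 2 arrays each, with GATA4 on 3 arrays, and with EV, an empty vector, on 2 arrays. MEF with EV alone served as MEF1 EV, the control of the OCT4 substitutes, on 2 arrays. OCT4, KLF4 and MYC (OKM) were combined with SOX1, SOX3, GMNN or SOX2 on 2 arrays each and with EV on 3, and MEF2 EV, on 2 arrays, was the control of the SOX2 substitutes. The induced pluripotent stem cell (iPSC) lines were G6Gm and G3, derived in OGXICR cells, and Dlx3RNAi, labelled with RNA interference against Dlx3. The embryonic stem cell (ESC) lines were R1 of strain 129 and B6 of strain C57BL\6, and uninfected MEF were measured beside them. B6 had 3 arrays, and R1, each iPSC line and the uninfected MEF had 2. The stem cells grew in medium with the inhibitors PD0325901 and CHIR99021 on mitomycin-treated MEF feeders and the fibroblasts in serum medium, so cell type, medium and feeder RNA cannot be told apart between them. Whether the arrays of a group came from separate cultures is not stated. The p-values reflect only how far arrays spread within groups, pooled for each gene over all groups, and that spread may be technical. It can be smaller or larger than the spread of the groups compared. In these bulk samples, fewer cells of a type and less RNA per cell cannot be told apart.

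The deposited intensities fell into 5 sets normalized separately, so tests were made within a set. ESC B6 stood alone in set A with 80 members measured. MEF2 EV and OKM+EV made up set B with 73, the other OKM groups set C with 72, MEF1 EV and all SKM groups set D with 69, and the remaining groups set E with 77. The median spread of a gene between the arrays of a group, as a standard deviation of log2 values, was 0.404 in set B and 0.221 in set C, against 0.103 to 0.157 in sets A, D and E. The test, limma fitted over all 49 arrays, shares 1 estimate of spread. In sets B and C a change is therefore called a rise or fall only if it also passed a fit of that set alone. The SE and p-values printed for sets B and C are from the fit over all arrays and may overstate the precision there. The 6 arrays of CEBPa+SKM, HNF4a+SKM and GRB2+SKM lay outside the range of the other 17 arrays of set D for 1596 of 10006 genes, or 16%. OKM+EV replicate 3 lay more than 2-fold outside both other replicates for 25.9% of genes, and OKM+SOX2 replicate 1 lay more than 2-fold below replicate 2 for 5.43%. In the mean of the pluripotent lines, the fibroblast markers fell for 11 of 12 measured genes, and all 5 measured pluripotent markers rose. The lines were unlike in degree. The fibroblast sum was 12844 to 12848 in G3 and 43246 to 49126 in Dlx3RNAi, against 69068 to 73875 in uninfected MEF. The pluripotent sum was 17487 to 17897 in R1 and 9993 to 10706 in Dlx3RNAi, against 675 to 683 in uninfected MEF.

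The promoter letters of 69 members were read from RefSeq, build GRCm38.p6, over the 250 bases before the annotated start. A heat shock element of 3 units, GAANNTTCNNGAA on either strand, occurred in 2 of these members, Hspe1 and Dnajb6, and in 0.466% of all 32851 promoters. The shorter 2-unit form GAANNTTC, which the 3-unit form contains, occurred in 10 members and in 6.69% of all promoters. Its other holders were Cct2, Dnaja1, Dnaja4, Dnajc27, Hspa1a, Hspa1b, Hspb1 and Hspb6. The ER stress response element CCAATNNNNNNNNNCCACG occurred in 3 members, Hspa5, Hsp90b1 and Dnajc3, and in 0.113% of all promoters. A member was counted once if any of its promoter entries matched. The shares are over all entries, of which a gene may have several, so the units differ. A match is a description of the letters only. The 6 promoters below are those of the holders of the 3-unit and the ER elements, with Hspb1 as a 2-unit holder chosen after its values were seen. They lie at chr1:55087898-55088147 on the plus strand, chr5:29735648-29735897 on the plus strand (1 of 2 entries), chr5:135887669-135887918 on the plus strand, chr2:34771840-34772089 on the plus strand, chr10:86705445-86705694 on the minus strand and chr14:118937682-118937931 on the plus strand. Capitals mark the fixed letters of the element.
Hspe1: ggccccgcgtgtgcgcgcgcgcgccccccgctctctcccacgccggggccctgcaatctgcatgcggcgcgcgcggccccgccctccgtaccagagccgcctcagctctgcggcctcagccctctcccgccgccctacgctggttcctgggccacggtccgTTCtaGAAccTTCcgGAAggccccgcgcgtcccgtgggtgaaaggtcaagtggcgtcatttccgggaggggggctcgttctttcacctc
Dnajb6: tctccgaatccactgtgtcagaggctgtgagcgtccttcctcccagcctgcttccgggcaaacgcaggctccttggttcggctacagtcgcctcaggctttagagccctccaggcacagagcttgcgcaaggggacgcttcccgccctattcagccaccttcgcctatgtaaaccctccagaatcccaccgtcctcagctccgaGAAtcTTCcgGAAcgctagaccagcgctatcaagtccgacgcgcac
Hspb1: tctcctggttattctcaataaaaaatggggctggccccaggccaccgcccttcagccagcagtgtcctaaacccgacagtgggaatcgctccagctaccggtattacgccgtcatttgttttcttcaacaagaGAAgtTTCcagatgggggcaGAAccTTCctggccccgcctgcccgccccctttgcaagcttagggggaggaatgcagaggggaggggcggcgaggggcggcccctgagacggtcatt
Hspa5: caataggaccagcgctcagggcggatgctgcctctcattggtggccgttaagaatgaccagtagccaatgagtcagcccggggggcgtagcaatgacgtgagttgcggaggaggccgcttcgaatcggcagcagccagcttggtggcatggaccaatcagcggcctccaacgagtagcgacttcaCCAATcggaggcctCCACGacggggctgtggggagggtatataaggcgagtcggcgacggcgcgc
Hsp90b1: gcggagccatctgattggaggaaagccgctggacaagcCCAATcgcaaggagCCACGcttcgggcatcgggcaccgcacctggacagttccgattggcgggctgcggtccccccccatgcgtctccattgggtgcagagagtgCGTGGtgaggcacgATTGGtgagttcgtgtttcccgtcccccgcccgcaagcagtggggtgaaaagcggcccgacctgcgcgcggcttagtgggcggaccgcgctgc
Dnajc3: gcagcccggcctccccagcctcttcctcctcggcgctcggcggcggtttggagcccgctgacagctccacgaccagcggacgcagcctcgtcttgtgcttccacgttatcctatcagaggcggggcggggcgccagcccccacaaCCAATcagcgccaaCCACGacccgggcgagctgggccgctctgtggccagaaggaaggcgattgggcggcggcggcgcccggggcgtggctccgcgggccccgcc

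The pluripotent lines G6Gm, G3, Dlx3RNAi and R1, averaged with equal weight, were set against uninfected MEF. The question was which chaperone genes differ between these lines and the fibroblast. Dnajc2, Dnajc21, Hspa14 and 6 of 8 CCT subunits rose, while all 3 HSP110 genes and the ER genes Hspa5 and Dnajc3 fell. Of 77 members, 25 rose and 24 fell, which is 63.6% called, against 57.8% of all genes tested (28.8% higher and 29.1% lower). The median log2 fold change of the members was 0.17, against 0.03 over all genes. Fold changes are differences of log2(intensity + 32). A gene passed where its p, adjusted by the Benjamini-Hochberg method across every gene of the comparison, was under 0.05. Most genes given with values in every array were chosen partly for lack of overlap between the sides. For them that lack is no further support. With so few arrays a side, it also occurred in many members that did not pass. A number alone in parentheses after a gene is its log2 fold change, and after a lost call it is the log2 fold change without the arrays named, each left out in turn.

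Both members of the ribosome-associated complex, which meets nascent chains as they leave the ribosome, rose in the lines. Dnajc2, its J-domain subunit, lay between 749 and 1371, with a median of 1032, on the 8 arrays of the lines, against 168 and 172 in MEF (log2 fold change 2.38 ± 0.12 SE, adjusted p = 1.10e-14). Hspa14, its HSP70 subunit, lay between 2539 and 6139.5, with a median of 4034, on the arrays of the lines, against 1482 and 1209 in MEF (log2 fold change 1.55 ± 0.23 SE, adjusted p = 9.12e-07). Every array of the lines was above both MEF arrays for each gene. Dnajc21, a J-domain protein of large ribosomal subunit maturation, lay between 898 and 1849.8, with a median of 1446, in the lines, against 240.0 and 316 in MEF (log2 fold change 2.21 ± 0.25 SE, adjusted p = 9.12e-09). Dnajc24, needed to make the diphthamide residue of elongation factor 2, lay between 719.7 and 1294, with a median of 947, in the lines, against 296 and 319 in MEF (log2 fold change 1.56 ± 0.13 SE, adjusted p = 5.86e-12). The lines and MEF did not overlap for either gene. Among class C J-domain genes 10 rose and 4 fell of 24 tested.

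A pair of J-domain genes known from synaptic vesicle traffic also rose. Dnajc6 (auxilin), which helps HSP70 strip clathrin from vesicles, lay between 266 and 879.6, with a median of 472, in the lines, against 133 and 116 in MEF (log2 fold change 1.70 ± 0.14 SE, adjusted p = 5.46e-09). Its highest arrays were those of ESC R1 and its lowest those of Dlx3RNAi. Dnajc5 (cysteine string protein), a vesicle-bound chaperone, lay between 1251 and 2469, with a median of 1895, in the lines, against 562 and 703 in MEF (log2 fold change 1.49 ± 0.19 SE, adjusted p = 1.76e-06). Dnaja2, a general cytosolic partner of HSP70, lay between 3719.5 and 4925, with a median of 4126, in the lines, against 1561 and 2009 in MEF (log2 fold change 1.24 ± 0.34 SE, adjusted p = 0.00223). The groups did not overlap for either gene, but the call of Dnaja2 was lost without MEF replicate 1 (1.06). Class A had 1 rise and 1 fall of 4, and class B 3 rises and 3 falls of 9.

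The HSP110 genes, whose products release nucleotide from HSP70, all fell. Hspa4l lay between 185 and 340.0, with a median of 233, in the lines, against 1036 and 917 in MEF (log2 fold change -1.86 ± 0.18 SE, adjusted p = 2.44e-10). Hspa4 lay between 633 and 968, with a median of 829.7, in the lines, against 1938 and 2149.6 in MEF (log2 fold change -1.33 ± 0.22 SE, adjusted p = 4.67e-06). Hsph1 lay between 644 and 1059, with a median of 889.9, in the lines, against 1350.4 and 1394 in MEF (log2 fold change -0.64 ± 0.12 SE, adjusted p = 7.98e-05). No array of the lines reached the lower MEF array for any of the 3. The falls are relative to the uninfected MEF of this set. After quantile normalization over all arrays, with no test, Hspa4 had means of 3264 in uninfected MEF, 730 in MEF1 EV and 970 in MEF2 EV. Its means in the lines were 969 to 1406. Hspa4l had 1470, 378 and 698 in the same controls and 273 to 463 in the lines. Of the 10 HSP70 genes, Hspa14 rose and 4 fell. Hspa5 (BiP), the HSP70 of the ER, lay between 2164 and 3429, with a median of 2777, in the lines, against 5364 and 5084 in MEF (log2 fold change -0.94 ± 0.22 SE, adjusted p = 6.86e-04). Hspa12a and Hspa12b, distant relatives without a known client, fell by 1.80 and 1.39 on the log2 scale, and Hspa1b, a stress-inducible copy, fell with overlapping arrays (log2 fold change -0.51). Mitochondrial Hspa9 did not pass the test (log2 fold change 0.25 ± 0.17 SE, adjusted p = 0.218).

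Several genes of the ER fell. Dnajc3, a lumenal partner of BiP, lay between 562 and 955, with a median of 725, in the lines, against 1748 and 1717 in MEF (log2 fold change -1.19 ± 0.18 SE, adjusted p = 1.55e-06). Among the 3 holders of the ER stress response element, Dnajc3 and Hspa5 fell and Hsp90b1 did not pass (log2 fold change -0.17, adjusted p = 0.324). Among other ER folding enzymes 3 rose and 6 fell of 13, including the collagen chaperone Serpinh1 (-1.31) and the disulfide isomerase Txndc5 (-1.11), while the oxidase Ero1a rose (2.34). Of 11 unfolded protein response genes 1 rose and 6 fell, among them Herpud1 (-1.18) and the sensor kinase Eif2ak3 (-0.92), and the riser was the transcription factor Atf4 (1.24). The 12 measured fibroblast markers, several of them collagens that pass through the ER, summed to 12844 to 49126 over the arrays of the lines and 69068 to 73875 in MEF. The part of the fibroblast genes in the ER values was not tested.

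Small heat shock proteins split. Hspb8, which works with Bag3 in selective autophagy, lay between 2682 and 5543, with a median of 4462, in the lines, against 1151 and 1219.9 in MEF (log2 fold change 1.77 ± 0.36 SE, adjusted p = 1.22e-04). Hspb6, abundant in muscle, lay between 204 and 546, with a median of 445, in the lines, against 1423 and 1659 in MEF (log2 fold change -1.92 ± 0.23 SE, adjusted p = 2.94e-08). For both genes every array of the lines lay on the same side of MEF. The muscle form Hspb7 also fell (log2 fold change -1.30), and the family counted 2 rises and 4 falls of 7. Bag3, the partner of Hspb8 in autophagy, fell by 1.08 on the log2 scale (adjusted p = 0.0422), a call lost without either MEF array, G6Gm replicate 1, either G3 array, R1 replicate 2 or Dlx3RNAi replicate 2 (-1.14 to -1.03). BAG genes had 0 rises and 2 falls of 6.

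The subunits of CCT, which stand in the ring in equal number, did not move as a block. Cct5, Cct7, Cct2, Cct3, Cct6a and Cct8 rose, with log2 fold changes of 1.10, 1.00, 0.91, 0.73, 0.71 and 0.61. The probe of Cct7 was the brightest CCT probe by its mean over all arrays, and whether the scale limits it was not tested. Tcp1, the first subunit described, fell. It lay between 1322 and 1652, with a median of 1591, in the lines, against 2723 and 2366 in MEF (log2 fold change -0.72 ± 0.12 SE, adjusted p = 4.96e-06), and the sides did not overlap. Cct4 did not pass (log2 fold change 0.21, adjusted p = 0.636). Of 9 prefoldin and chaperonin cofactor genes 6 rose, including Pfdn2 (2.45) and Pfdn5 (1.26), and 2 fell. Of 14 HSP90 co-chaperone genes 4 rose, including Ptges3 (1.09), Fkbp4 (0.81) and the ATPase activator Ahsa1 (0.80), and 2 fell. Cytosolic Hsp90ab1 rose with overlapping arrays (log2 fold change 0.50).

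The heat shock factors moved in opposite directions. Hsf1, the main activator of the heat shock response, lay between 385 and 619, with a median of 498, in the lines, against 984 and 1076 in MEF (log2 fold change -1.03 ± 0.12 SE, adjusted p = 4.00e-07). Hsf2, known for roles in development, had a log2 fold change of 0.56 and rose. Of the 10 members with a 2-unit heat shock element in the promoter 2 rose and 4 fell, and of those with the 3-unit form Dnajb6 rose (0.81) while Hspe1 did not pass (0.50, adjusted p = 0.34). Of 9 genes of the oxidative stress response 7 passed. Of these 6 rose, among them Gsr (1.42) and Nqo1 (1.20), and the remaining gene fell. Perlecan, Hspg2, fell with a log2 fold change of -1.36.

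**Figure D1:**
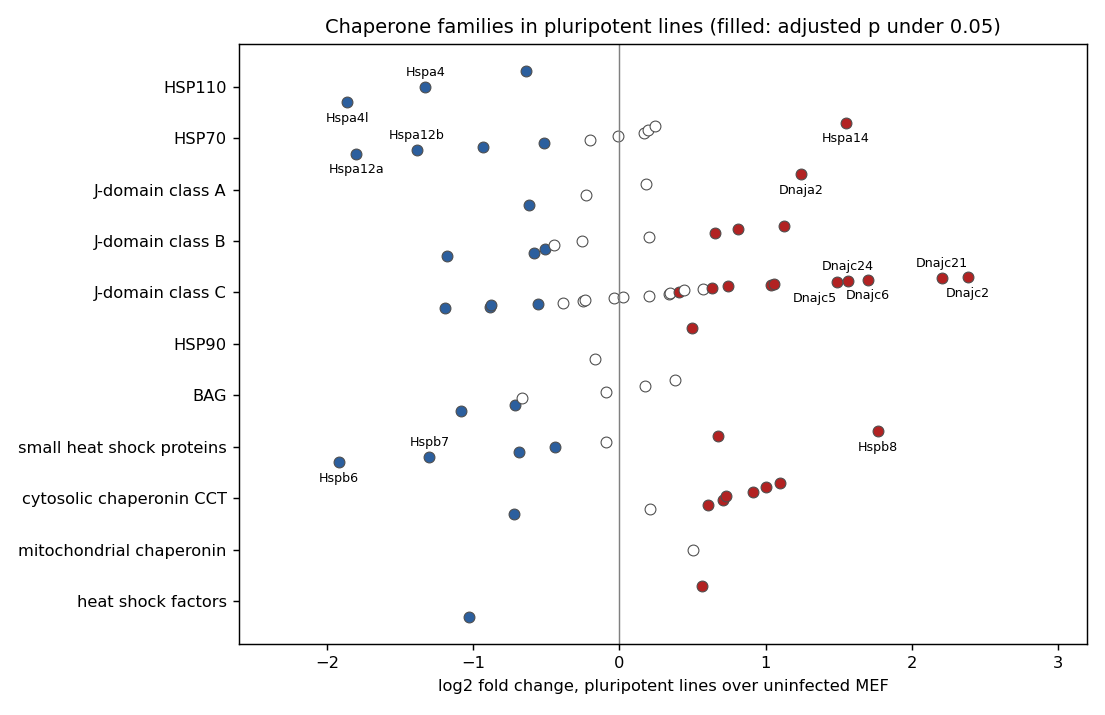
Log2 fold change of each member in the pluripotent lines over uninfected MEF, by family. Filled points have an adjusted p under 0.05 (red higher, blue lower in the lines) and open points do not. All 3 HSP110 genes lie below 0, and 7 of the 8 CCT subunits lie above it, with Tcp1 below. Hspg2 is not drawn.

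The 3 iPSC lines were set against ESC R1 to ask whether chaperone expression in induced lines matches that of an embryonic line. Of 77 members 2 rose and 5 fell, or 9.09%, against 13.3% of all genes (7.09% higher and 6.2% lower). Hspa1b lay between 359 and 489, with a median of 426, in the iPSC lines, against 1056 and 865 in R1 (log2 fold change -1.10 ± 0.22 SE, adjusted p = 6.54e-04). Hspa1a, its near-identical neighbour, had a log2 fold change of -0.47 (adjusted p = 0.00974). Dnajc6 lay between 266 and 547, with a median of 415, in the iPSC lines, against 795 and 879.6 in R1 (log2 fold change -1.03 ± 0.15 SE, adjusted p = 8.50e-05). Neither Dnajc6 nor Hspa1b overlapped between the sides. Hspb2, a muscle form, fell by 1.57 on the log2 scale at low intensities, and Dnajc24 had a log2 fold change of -0.44. Hspb11, a subunit of intraflagellar transport despite its name, rose (0.75), as did Hsph1 (0.43). The count of 7 was 22 in the fit of this set alone and 14 with the replicate number as a block. The 7 calls became 4 without R1 replicate 1 and 4 without R1 replicate 2, and the calls lost included Hspb11 without R1 replicate 2 (0.65), Hsph1 without either R1 array (0.34 to 0.52), and Dnajc24 without either R1 array or G6Gm replicate 2 (-0.51 to -0.36). R1 was the 1 line of strain 129, so line, origin and strain cannot be told apart.

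The iPSC lines differed among themselves in 18 of 77 members, or 23.4%, against 26.8% of all genes. G3 stood apart in the 5 members with the widest range of line means. Dnajb4, a cytosolic J-domain protein, had 3130.1 and 2822 in G6Gm, 1170.4 and 905 in G3 and 3372 and 3735 in Dlx3RNAi, a range of 1.75 log2 units (adjusted p = 6.68e-06, limma F-test). Bag2, which inhibits the ubiquitin ligase CHIP bound to HSP70, had 2972 and 2794 in G6Gm, 1160.1 and 1079.9 in G3 and 3571 and 3234 in Dlx3RNAi, a range of 1.57 (adjusted p = 1.53e-06). In both genes G3 was lowest and did not overlap the other lines. Hspb6 had 546 and 474 in G6Gm, 204 and 205 in G3 and 416 and 511 in Dlx3RNAi, a range of 1.19 (adjusted p = 0.00359). Dnajc1, a J-domain protein of the ER membrane that contacts ribosomes, had 786 and 856 in G6Gm, 352 and 346 in G3 and 889.9 and 651 in Dlx3RNAi, a range of 1.16 (adjusted p = 0.0178). G3 was again lowest in both. Cct3 went the other way, with 4669 and 4502 in G6Gm, 9624 and 9000.1 in G3 and 4711 and 4909 in Dlx3RNAi, a range of 1.02 (adjusted p = 4.25e-07). The fibroblast markers summed to 34565 to 36247 in G6Gm, 12844 to 12848 in G3 and 43246 to 49126 in Dlx3RNAi, so G3 was lowest in these too, and the part of MEF RNA in the line differences was not tested. The 18 calls became 10 without G3 replicate 1, and the call of Dnajc1 was lost without either G3 array, with ranges of 1.15 and 1.18.

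**Figure D2:**
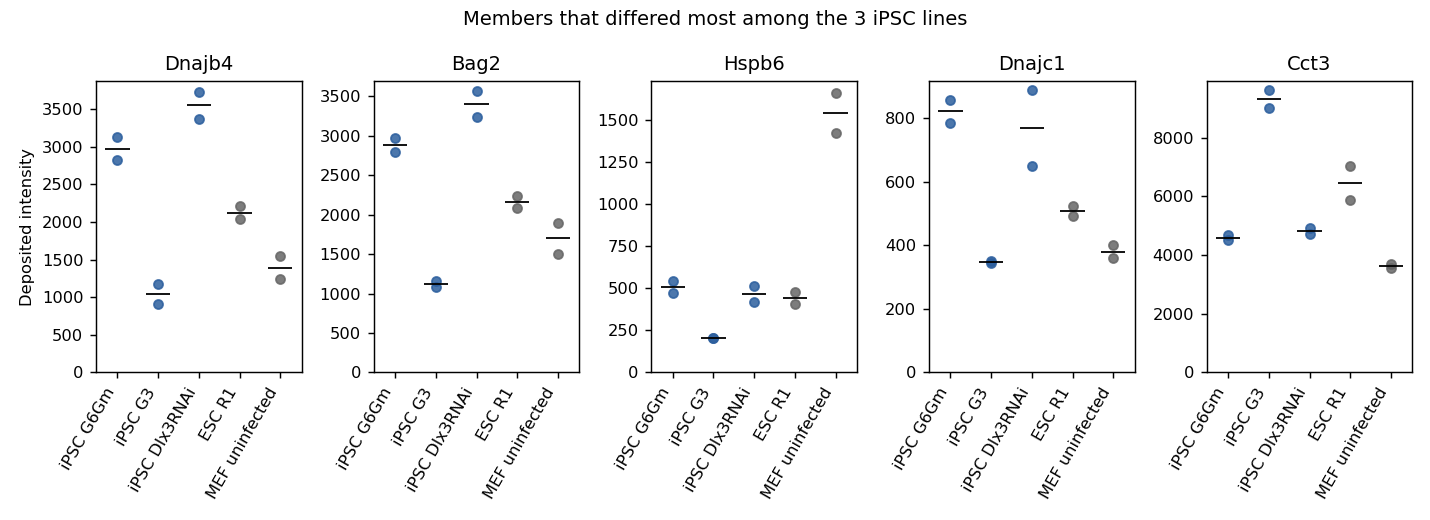
Intensity of Dnajb4, Bag2, Hspb6, Dnajc1 and Cct3 on each array of the iPSC lines, ESC R1 and uninfected MEF. Points are arrays and bars group means. G3 is the lowest of the 3 iPSC lines in the first 4 genes and the highest in Cct3.

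ESC B6 had been normalized on its own, and its members are given with no test. Cct3 had 20942, 21454 and 20322, Hsp90ab1 had 40657, 41724 and 43822 and Hspa9 had 24692, 22878 and 28408. Hspa1a had 71.8, 71.7 and 82.2 and Dnajc25 had 65.2, 50 and 60.3, the lowest values of this line given here. Its 3 arrays lay close together in Cct3 and Hsp90ab1 and less so in the others. After quantile normalization over all arrays, Hspa4 had a mean of 4645 in B6, 3264 in uninfected MEF and 969 to 1406 in the other lines. The fibroblast controls of other sets had 730 in MEF1 EV and 970 in MEF2 EV. Fibroblasts thus differed widely between sets, and the level of B6 beside the other lines cannot be read from these values. Hspa4l had 289 in B6, 1470 in uninfected MEF, 378 in MEF1 EV, 698 in MEF2 EV and 273 to 463 in the other lines. Hspa5 had 7549, 8670, 6864, 3309 and 3662 to 5405 in the same order. These differences were not tested.

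SKM+EV was set against MEF1 EV to ask what the 3 factors without an OCT4 substitute do to the fibroblasts. Cct3, Bag2 and Hsp90ab1 rose, the small heat shock protein gene Hspb1 fell, and most other members did not pass. Of 69 members 6 rose and 6 fell, or 17.4%, against 19.6% of all genes (9.95% higher and 9.67% lower), and the members' median log2 fold change was 0.05, against -0.02. Cct3 had 2625 and 2408 in SKM+EV, against 655 and 651 in MEF1 EV (log2 fold change 1.89 ± 0.13 SE, adjusted p = 1.07e-12). Bag2 had 724 and 626 in SKM+EV, against 354 and 248 in MEF1 EV (log2 fold change 1.10 ± 0.21 SE, adjusted p = 2.80e-04). The groups did not overlap in either, and both calls held without each array in turn. Hsp90ab1 had 4098 and 7763 in SKM+EV, against 1870.4 and 3781 in MEF1 EV (log2 fold change 1.08 ± 0.25 SE, adjusted p = 0.00156). Its arrays did not overlap but differed within each group almost as much as between them, and the call was lost without MEF1 EV replicate 1 or SKM+EV replicate 2 (0.57 to 0.62).

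Hspa9 (mortalin), the HSP70 of the mitochondrial matrix, had 7369.7 and 6225 in SKM+EV, against 4103 and 3108 in MEF1 EV (log2 fold change 0.92 ± 0.21 SE, adjusted p = 0.00203). Dnajc2 and Dnajc24 rose as well, with log2 fold changes of 0.98 and 0.62. Hspb1 (HSP27), an actin-binding small heat shock protein, had 949.8 and 1122 in SKM+EV, against 1955 and 2215 in MEF1 EV (log2 fold change -0.99 ± 0.29 SE, adjusted p = 0.0146). The groups did not overlap, yet the Hspb1 call was lost without MEF1 EV replicate 1, MEF1 EV replicate 2 or SKM+EV replicate 1 (-1.08 to -0.87). Hspa13, an HSP70 of microsomes, had 518 and 679 in SKM+EV, against 1008 and 1198 in MEF1 EV (log2 fold change -0.86 ± 0.23 SE, adjusted p = 0.00769). The smaller falls were in Hspa2, Bag5, Dnajb14 and the ER disulfide reductase Dnajc10. The call of Hspa9 was lost without MEF1 EV replicate 2 (0.72), that of Hspa13 without MEF1 EV replicate 2 or SKM+EV replicate 1 (-0.73 to -0.67), and those of Hspa2 (-0.54 to -0.47) and Dnajc10 (-0.42 to -0.41) without MEF1 EV replicate 1 or SKM+EV replicate 2. Beyond the members, 6 of 7 genes of mitochondrial protein quality control rose, among them the proteases Afg3l2 (0.86), Clpp (0.69) and Lonp1 (0.59). Of 11 unfolded protein response genes 3 rose, Trib3 (1.49), Ddit3 (1.47) and Chac1 (1.03), and 2 fell. Keratinocyte markers rose for 8 of 9, and their sum was 106941 to 110956 in SKM+EV and 2657 to 3094 in MEF1 EV. The part of such cells in the chaperone values was not tested. The 12 calls became 7 without MEF1 EV replicate 1.

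The 9 factors added to SKM were each set against SKM+EV to ask how an OCT4 substitute alters the SKM state. These comparisons share the 2 SKM+EV arrays, so a high or low SKM+EV array enters all of them. The largest number of members moved with GATA4 and the smallest with MIXL1, as they did over all genes.

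With GATA4, 18 members rose and 8 fell of 69, or 37.7%, against 53.8% of all genes (29% higher and 24.8% lower). The small heat shock protein Hspb1, the HSP110 gene Hspa4l and ribosome-linked Dnajc21 rose, and the ER genes split. Hspb1 had 3193, 3129.9 and 2965 in GATA4+SKM, against 949.8 and 1122 in SKM+EV (log2 fold change 1.55 ± 0.27 SE, adjusted p = 1.86e-05). Hspa4l had 833, 891 and 789.8 in GATA4+SKM, against 269.6 and 272 in SKM+EV (log2 fold change 1.52 ± 0.21 SE, adjusted p = 4.28e-07). Dnajc21 had 1124, 834 and 987 in GATA4+SKM, against 271 and 484 in SKM+EV (log2 fold change 1.35 ± 0.29 SE, adjusted p = 3.01e-04). The groups were clear of each other in all 3. Dnajb3, a J-domain gene best known from testis, had 954, 796 and 736 in GATA4+SKM, against 209 and 324 in SKM+EV (log2 fold change 1.55 ± 0.24 SE, adjusted p = 4.32e-06). Dnajc16 had 926, 972 and 899.7 in GATA4+SKM, against 392 and 384 in SKM+EV (log2 fold change 1.20 ± 0.23 SE, adjusted p = 9.23e-05). The chaperonin subunit Cct6a had 51161, 37731 and 43719 in GATA4+SKM, against 17469 and 26296 in SKM+EV (log2 fold change 1.03 ± 0.21 SE, adjusted p = 1.98e-04), and Tcp1 was the other CCT gene that rose (0.36). Neither Dnajb3, Dnajc16 nor Cct6a overlapped between the groups.

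The GATA4 falls were led, among the brighter genes, by Hspa1l, Dnajc1 and Hspa5. Hspa1l, an HSP70 of the male germline, had 286, 344 and 363 in GATA4+SKM, against 1043 and 725 in SKM+EV (log2 fold change -1.32 ± 0.31 SE, adjusted p = 8.36e-04). Dnajc1 had 1022, 1016 and 959 in GATA4+SKM, against 2456 and 2517 in SKM+EV (log2 fold change -1.29 ± 0.32 SE, adjusted p = 0.00118). Hspa5 had 3426, 3919 and 4138 in GATA4+SKM, against 7437 and 7098 in SKM+EV (log2 fold change -0.92 ± 0.26 SE, adjusted p = 0.00353). All 3 GATA4 arrays were below both SKM+EV arrays in each. Of the holders of the ER stress response element, Hspa5 thus fell while Dnajc3 rose, with 4098, 4063 and 4882 in GATA4+SKM, against 2657 and 2466 in SKM+EV (log2 fold change 0.75 ± 0.21 SE, adjusted p = 0.00327), and Hsp90b1 did not pass (-0.19, adjusted p = 0.334). Among other ER folding enzymes 1 rose and 3 fell of 11, including Serpinh1 (-1.92). Keratinocyte markers fell for 8 of 9. Of 11 fibroblast markers 9 passed, of which 8 fell and the remaining marker rose. The keratinocyte sum was 18774 to 20158 in GATA4+SKM and 106941 to 110956 in SKM+EV, and the fibroblast sum 93965 to 98796 in GATA4+SKM and 141864 to 142290 in SKM+EV. Their part in these values was not tested. Dnajc12, with a log2 fold change of -0.79, was the only GATA4 result under the naming rule whose call ended when 1 array was left out, namely SKM+EV replicate 1 (-0.74).

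With GATA6, 9 members rose and 2 fell, or 15.9%, against 22% of all genes (11.8% higher and 10.2% lower). Hspb1 had 3088 and 3128 in GATA6+SKM, against 949.8 and 1122 in SKM+EV (log2 fold change 1.56 ± 0.29 SE, adjusted p = 1.29e-04). Hsf2 had 937 and 1098 in GATA6+SKM, against 553 and 553 in SKM+EV (log2 fold change 0.84 ± 0.15 SE, adjusted p = 8.87e-05). The groups were well apart in both, and both calls held without each array. Bag2 had 1128 and 1369 in GATA6+SKM, against 724 and 626 in SKM+EV (log2 fold change 0.85 ± 0.21 SE, adjusted p = 0.00351). The paralogs Hspa12a and Hspa12b went opposite ways. Hspa12a had 85.9 and 92.5 in GATA6+SKM, against 561 and 485 in SKM+EV (log2 fold change -2.19 ± 0.23 SE, adjusted p = 5.90e-09). Hspa12b, known from endothelial cells, had 1125 and 932 in GATA6+SKM, against 644 and 565 in SKM+EV (log2 fold change 0.73 ± 0.24 SE, adjusted p = 0.0254), a call lost without any of the 4 arrays (0.60 to 0.87). The other risers were Hspa4l, Hsp90ab1, Cct6a, Dnajc16 and Dnajb14, and Hspa1a fell. The 11 calls became 6 without SKM+EV replicate 1 and 5 without GATA6+SKM replicate 2. Either omission ended the calls of Cct6a (0.41 to 0.51) and Hsp90ab1 (0.29 to 0.60), and the second ended that of Bag2 (0.72). Keratinocyte markers fell for 6 of 9. Of 11 fibroblast markers 9 passed, of which 8 fell and the remaining marker rose. The keratinocyte sum was 77989 to 83122 in GATA6+SKM and 106941 to 110956 in SKM+EV, and the fibroblast sum 68951 to 69344 in GATA6+SKM and 141864 to 142290 in SKM+EV. Simple epithelial markers rose for 2 of 2, with sums of 38114 to 45526 in GATA6+SKM and 8805 to 13038 in SKM+EV. The part of these markers was not tested.

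With SOX7, 11 members rose and 2 fell, or 18.8%, against 12.1% of all genes (6.32% higher and 5.76% lower). Bag2 had 1722 and 2026 in SOX7+SKM, against 724 and 626 in SKM+EV (log2 fold change 1.43 ± 0.21 SE, adjusted p = 1.55e-05). Dnajc2 had 909 and 1018 in SOX7+SKM, against 561 and 519 in SKM+EV (log2 fold change 0.80 ± 0.15 SE, adjusted p = 5.42e-04). These 2 calls held without each array, and the groups did not overlap. Small heat shock proteins had 3 rises of 6. Hspb6 had 4518 and 3092 in SOX7+SKM, against 1558 and 2083 in SKM+EV (log2 fold change 1.04 ± 0.29 SE, adjusted p = 0.017), and Hspb1 had 2002 and 1996 in SOX7+SKM, against 949.8 and 1122 in SKM+EV (log2 fold change 0.93 ± 0.29 SE, adjusted p = 0.0336). Hspb11 had a log2 fold change of 0.88. Hspa12a and Hspa12b both fell here, with log2 fold changes of -0.97 and -0.95. Hspa9 had 12213 and 12937 in SOX7+SKM, against 7369.7 and 6225 in SKM+EV (log2 fold change 0.89 ± 0.21 SE, adjusted p = 0.00495). The 13 calls became 4 without SKM+EV replicate 1 and 7 without SOX7+SKM replicate 1. The call of Hspb1 was lost without any 1 array (0.82 to 1.05), and those of Hspb6 (0.77 to 0.83) and Dnajc21 (0.61 to 0.73) without SKM+EV replicate 1 or SOX7+SKM replicate 1. Dnajb5 (0.63) and Hspb11 (0.67) were lost without SKM+EV replicate 1, and Hspa9 (0.77) without SKM+EV replicate 2. Keratinocyte markers fell for 3 of 9, with sums of 86442 to 97635 in SOX7+SKM and 106941 to 110956 in SKM+EV, and fibroblast markers for 2 of 11, with sums of 103627 to 110592 in SOX7+SKM and 141864 to 142290 in SKM+EV. Of 3 skeletal muscle markers 0 passed and 1 had an unadjusted p under 0.05 in limma, and their sum was 2058 to 2552 in SOX7+SKM and 1347 to 1488 in SKM+EV. The part of these markers was not tested.

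With PAX1, 6 members rose and 2 fell, or 11.6%, against 15.7% of all genes (9.57% higher and 6.1% lower). Hspa4 had 1918 and 1982 in PAX1+SKM, against 742 and 725 in SKM+EV (log2 fold change 1.37 ± 0.27 SE, adjusted p = 5.58e-04). Hspa13 had 1272 and 1312 in PAX1+SKM, against 518 and 679 in SKM+EV (log2 fold change 1.08 ± 0.23 SE, adjusted p = 0.0015). Hsp90b1 (GRP94), the HSP90 of the ER, had 6240.2 and 6995 in PAX1+SKM, against 3857 and 3667 in SKM+EV (log2 fold change 0.81 ± 0.18 SE, adjusted p = 0.00178). PAX1 arrays were the higher in all 3 with no overlap. Hspa5, also of the ER, had 9454 and 11045 in PAX1+SKM, against 7437 and 7098 in SKM+EV, and did not pass (0.49, adjusted p = 0.253). Dnajc24 had 1009 and 745 in PAX1+SKM, against 1672 and 1724 in SKM+EV (log2 fold change -0.94 ± 0.16 SE, adjusted p = 7.65e-05). Cct3 fell as well (-0.62), and the small rise of Hsf2 (0.46) was lost without any 1 array (0.45 to 0.48). Keratinocyte markers fell for 6 of 9, and their sum was 16485 to 18173 in PAX1+SKM and 106941 to 110956 in SKM+EV. Simple epithelial markers fell for 2 of 2 and fibroblast markers rose for 3 of 11. The part of these markers was not tested.

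OCT4, the factor the others were to replace, moved 5 members, 3 up and 2 down, or 7.25%, against 11% of all genes (5.29% higher and 5.75% lower). Cct3 had 1199 and 1077 in OCT4+SKM, against 2625 and 2408 in SKM+EV (log2 fold change -1.12 ± 0.13 SE, adjusted p = 2.52e-07), and OCT4 arrays were clear of SKM+EV and still above MEF1 EV. Hspa4 had 1180.4 and 1516 in OCT4+SKM, against 742 and 725 in SKM+EV (log2 fold change 0.84 ± 0.27 SE, adjusted p = 0.0413). The 5 calls became 1 without SKM+EV replicate 1 or OCT4+SKM replicate 1, and 2 without SKM+EV replicate 2 or OCT4+SKM replicate 2. Cct3 passed each time and Hspa4 never did (0.66 to 1.02). The keratinocyte sum was 50156 to 54411 in OCT4+SKM and 106941 to 110956 in SKM+EV, with 6 of 9 markers lower, and its part was not tested. With MIXL1, 0 members rose and Cct3 alone fell, or 1.45%, against 2.08% of all genes (1.04% higher and 1.04% lower), while 5 members had an unadjusted p under 0.05 in limma. Cct3 had 1671 and 1692 in MIXL1+SKM, against 2625 and 2408 in SKM+EV (log2 fold change -0.57 ± 0.13 SE, adjusted p = 0.0138). This call was lost without SKM+EV replicate 1 and without MIXL1+SKM replicate 1 or 2 (-0.58 to -0.51), leaving 0 calls.

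CEBPa, HNF4a and GRB2 gave like values in many members, and their 6 arrays are the ones that stood apart from the other 17 of this set. With CEBPa 9 members rose and 5 fell, or 20.3%, against 34.6% of all genes (20% higher and 14.7% lower). With HNF4a 8 rose and 8 fell, or 23.2%, against 42.4% (22.9% higher and 19.5% lower), and with GRB2 13 rose and 6 fell, or 27.5%, against 40.3% (23.1% higher and 17.1% lower). Cct3 had 9239 and 9590.2 in CEBPa+SKM, 8145 and 8791 in HNF4a+SKM and 8742 and 9193 in GRB2+SKM, against 2625 and 2408 in SKM+EV. Its log2 fold changes were 1.89, 1.74 and 1.82 (adjusted p = 2.40e-12, 8.92e-12 and 8.14e-12). Hsp90ab1 had 14571 and 17185 in CEBPa+SKM, 17260.3 and 17335 in HNF4a+SKM and 16078 and 18489.8 in GRB2+SKM, against 4098 and 7763 in SKM+EV. Its log2 fold changes were 1.48, 1.61 and 1.61. All 6 arrays exceeded both SKM+EV arrays in each gene.

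Bag2 had 1993 and 2148 in CEBPa+SKM, 2205 and 1869 in HNF4a+SKM and 1899.6 and 1795 in GRB2+SKM, against 724 and 626 in SKM+EV. Its log2 fold changes were 1.58, 1.55 and 1.41. Unlike Cct3 and Hsp90ab1, Bag2 was as high in SOX7+SKM as in some of these arrays. Hsp90b1 had 6925 and 6219 in CEBPa+SKM, 7084 and 6565 in HNF4a+SKM and 7308 and 7813 in GRB2+SKM, against 3857 and 3667 in SKM+EV, with log2 fold changes of 0.80, 0.85 and 1.00. Hspa1l had 290.3 and 186 in CEBPa+SKM, 252 and 233 in HNF4a+SKM and 171 and 229.7 in GRB2+SKM, against 1043 and 725 in SKM+EV, with log2 fold changes of -1.77, -1.72 and -1.97. The 6 arrays were above SKM+EV in Bag2 and Hsp90b1 and below it in Hspa1l. Hspa13 and Dnajc2 rose and Dnajc10, Dnajc19 (a subunit of the mitochondrial import motor) and Dnajc22 fell in each of the 3 comparisons, which share the SKM+EV arrays. The call of Hspa13 with CEBPa was lost without SKM+EV replicate 1 or CEBPa+SKM replicate 2 (0.58 to 0.62). That of Dnajc10 was lost without SKM+EV replicate 1 or replicate 1 of the factor in each comparison, and with HNF4a also without its replicate 2 (-0.47 to -0.42 with CEBPa, -0.44 to -0.31 with HNF4a and -0.45 to -0.44 with GRB2).

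Some members were called with a part of these 3 factors. Hspa4 rose with CEBPa (1.00) and GRB2 (1.12) and had 0.65 with HNF4a (adjusted p = 0.0533). Hspb8 rose with GRB2, where it had 9810.2 and 10334 in GRB2+SKM, against 4194 and 4357 in SKM+EV (log2 fold change 1.23 ± 0.46 SE, adjusted p = 0.0329), a call lost without any 1 array (1.19 to 1.27). Dnajb9, an ER partner of BiP, had 946 and 952 in GRB2+SKM, against 456 and 418 in SKM+EV (log2 fold change 1.07 ± 0.32 SE, adjusted p = 0.00841). With HNF4a Dnajb9 had a log2 fold change of 0.80, a call lost without any 1 array (0.74 to 0.86). Hspb1 rose and Bag1 fell with CEBPa, and Bag1 and Hsph1 fell with HNF4a. Of these, Hspb1 (0.79 to 0.91) was lost without SKM+EV replicate 1 or either CEBPa array, Bag1 with CEBPa (-0.43 to -0.34) without either SKM+EV array or CEBPa+SKM replicate 2, and Hsph1 (-0.40 to -0.29) without SKM+EV replicate 1 or either HNF4a array. The differences among the 3 factors were not tested. The HNF4a count of 16 became 10 without SKM+EV replicate 1.

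Values and counts for lists of other folding and quality control genes are given in the order CEBPa, HNF4a and GRB2. Of 10 HSP90 co-chaperone genes 5 rose and 0 fell with each of the 3 factors. Ahsa1 had log2 fold changes of 1.98, 2.19 and 1.92, and Ptges3 (p23) had 1.14, 1.22 and 1.47. The mitochondrial proteases Lonp1 (2.05, 2.45 and 1.73) and Afg3l2 (2.01, 2.40 and 1.85) and the ER isomerase Pdia4 (1.94, 2.53 and 2.03) rose too. Of 7 genes of mitochondrial protein quality control 3, 2 and 3 rose and 0, 1 and 0 fell. Of 11 ER folding enzymes 3 rose with each factor and 0, 1 and 1 fell, and of 9 prefoldin and chaperonin cofactor genes 3, 4 and 4 rose and 2 fell with each. Of 11 unfolded protein response genes 0, 2 and 1 rose and 0, 0 and 1 fell, and 1 had an unadjusted p under 0.05 with CEBPa in limma. Over the whole set, 9 of 69 members, or 13%, lay outside the range of the other 17 arrays on all 6, against 16% of all genes. Above it were Cct3, Hsp90ab1, Hspb8, Hspe1, Hspb7 and Dnajc11, and below it Bag4, Dnajc22 and Hsph1. The prefoldin subunit gene Pfdn4 had 6569 to 8592 on the 6 arrays, against 0.00826 to 8.04 on the other 17. Whether these arrays shared a step of handling is not stated, and the arrays and the factors cannot be told apart. Keratinocyte markers fell for 7, 8 and 9 of 9, with sums of 36147 to 37872 in CEBPa+SKM, 19470 to 19713 in HNF4a+SKM and 23659 to 24083 in GRB2+SKM, against 106941 to 110956 in SKM+EV. Simple epithelial markers fell for 2 of 2 with each of the 3, and the part of these markers was not tested.

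**Figure D3:**
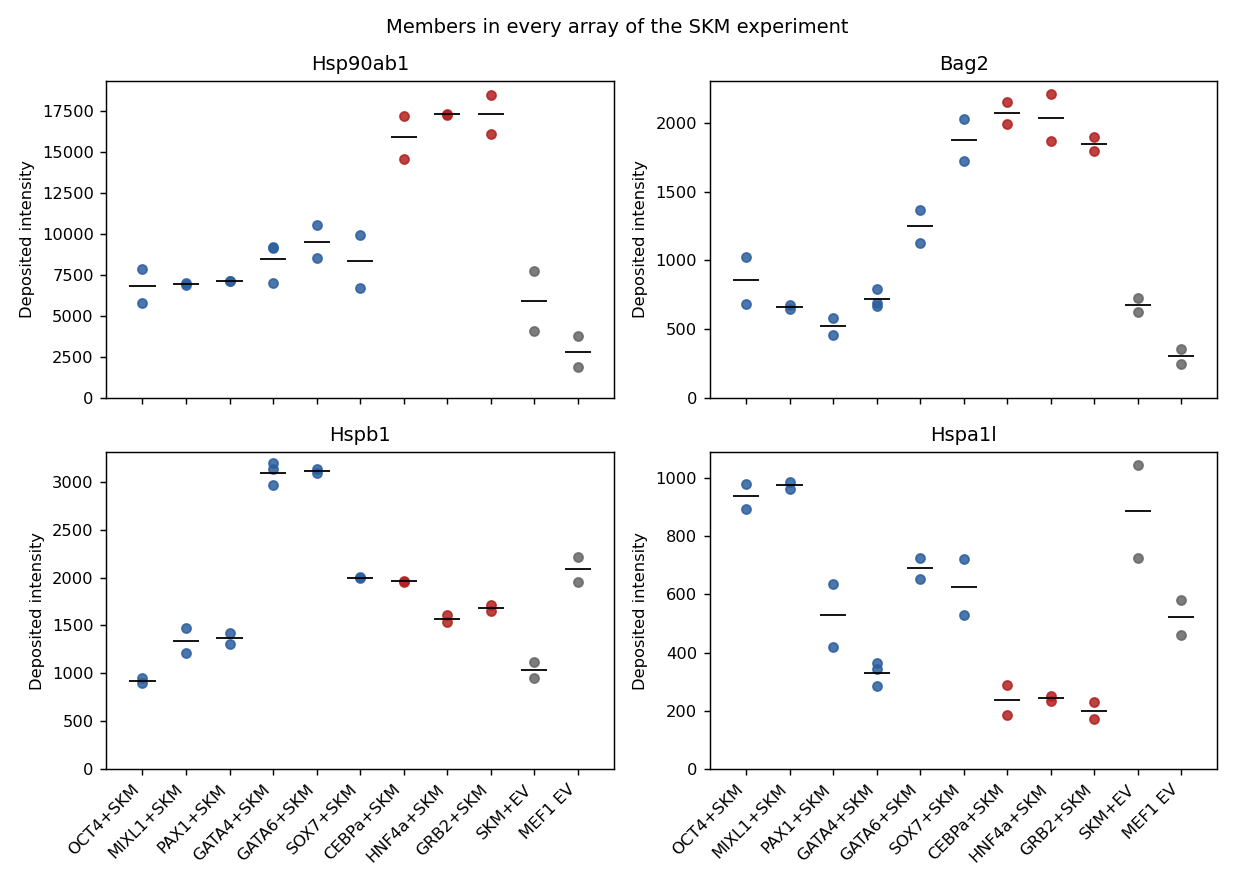
Intensity of Hsp90ab1, Bag2, Hspb1 and Hspa1l on each array of the SKM experiment, with bars at group means. Red marks CEBPa, HNF4a and GRB2 and grey SKM+EV and MEF1 EV. The red arrays are the highest in Hsp90ab1, and the GATA4 and GATA6 arrays are the highest in Hspb1.

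Within the chaperonin, Cct3 had the widest range of group means in 2 of the 4 sets with several groups. Over the 11 groups of the SKM set its group means spanned 14.4-fold, with 9415 in CEBPa+SKM and 653 in MEF1 EV. The ranges of the 6 other subunits apart from Cct7 were 1.46-fold to 2.93-fold. Cct7, the brightest CCT probe by its mean over all arrays, ranged over 1.38-fold. Whether the scale limits this probe was not tested. Without the 6 arrays of CEBPa+SKM, HNF4a+SKM and GRB2+SKM, a choice made after seeing the data, the range of Cct3 was 3.91-fold, with 2557 in GATA6+SKM and 653 in MEF1 EV, and the widest of the others was 2.93-fold in Cct6a. In the set of OKM+EV and MEF2 EV, Cct3 differed by 9.22-fold, Cct7 by 1.01-fold and the others by 1.18-fold to 1.62-fold. Cct3 did not have the widest range in the other 2 sets. It ranged over 1.97-fold in the other OKM groups, where Cct5 ranged over 2.02-fold, and over 2.57-fold in the lines and uninfected MEF, where Cct5 ranged over 2.71-fold. These are descriptions with no test. Cct3 was measured by 1 probe, so a feature of that probe cannot be told apart from the gene.

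**Figure D4:**
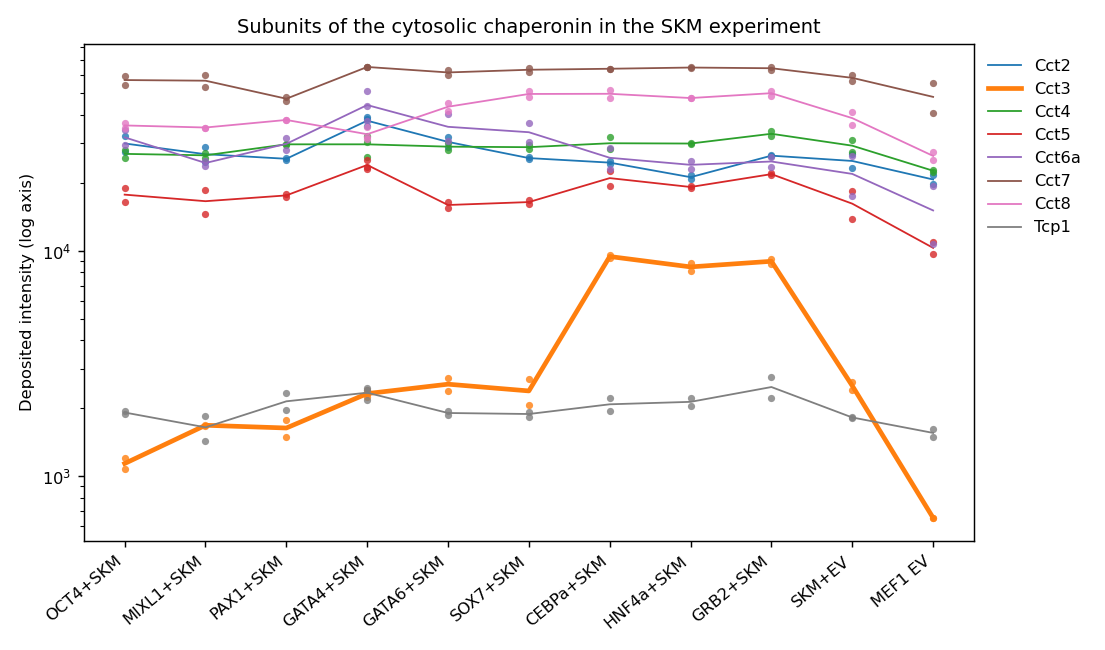
Intensity on a log axis of the 8 CCT subunits in the 11 groups of the SKM experiment. Points are arrays and lines join group means. The line of Cct3 spans 14.4-fold, or 3.91-fold without CEBPa+SKM, HNF4a+SKM and GRB2+SKM, and the others at most 2.93-fold. Cct7 has the brightest CCT probe by its mean over all arrays, and whether the scale limits it was not tested.

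OKM+EV was set against MEF2 EV to ask what OCT4, KLF4 and MYC do without SOX2 or a substitute. Over all arrays 14 members passed upward and 11 downward of 73, or 34.2%, against 40.4% of all genes (19.5% higher and 20.9% lower), but in the fit of this noisy set alone 3 passed. These 3, Cct3, Bag2 and Dnajc24, rose. Their SE and p are given from limma over all arrays, not from the fit of this set alone. Cct3 had 5749, 5449.6 and 7084 in OKM+EV, against 697 and 624 in MEF2 EV (log2 fold change 3.14 ± 0.12 SE, adjusted p = 3.30e-19). Bag2 had 1794, 1656 and 1139 in OKM+EV, against 201 and 367 in MEF2 EV (log2 fold change 2.33 ± 0.20 SE, adjusted p = 3.22e-11). Dnajc24 had 501, 609 and 633 in OKM+EV, against 137 and 167 in MEF2 EV (log2 fold change 1.73 ± 0.15 SE, adjusted p = 3.18e-11). All OKM+EV arrays, replicate 3 included, exceeded both MEF2 EV arrays, and the calls held without each array. The same 3 genes had log2 fold changes of 1.89, 1.10 and 0.62 in SKM+EV over MEF1 EV, a comparison with arrays of its own.

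Members that passed only over all arrays are given as values. Hspa9, of mitochondria, had a log2 fold change of 1.54 and its matrix neighbour Hspe1 1.37, and Dnajc21 had 1.26. On the other side Dnaja3, a mitochondrial J-domain protein, had -1.28, perlecan (Hspg2) -1.26, and the ER genes Dnajc3 and Dnajb11 -0.98 and -0.95. OKM+EV replicate 3 lay more than 2-fold outside both other replicates in 24 of 73 members, and in 25.9% of all genes. Replicates 1 and 2 did so in 0 members. Without OKM+EV replicate 3 the count of calls over all arrays became 39, and without MEF2 EV replicate 2 it became 15. Keratinocyte markers passed upward for 9 of 10, and their sum was 42198 to 69476 in OKM+EV and 1833 to 2034 in MEF2 EV. Simple epithelial markers passed upward for 3 of 3, with sums of 10838 to 18585 in OKM+EV and 662 to 863 in MEF2 EV. Myeloid markers passed downward for 4 of 4, with sums of 694 to 2956 in OKM+EV and 26268 to 34051 in MEF2 EV. The part of these cells in the chaperone values was not tested.

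**Figure D5:**
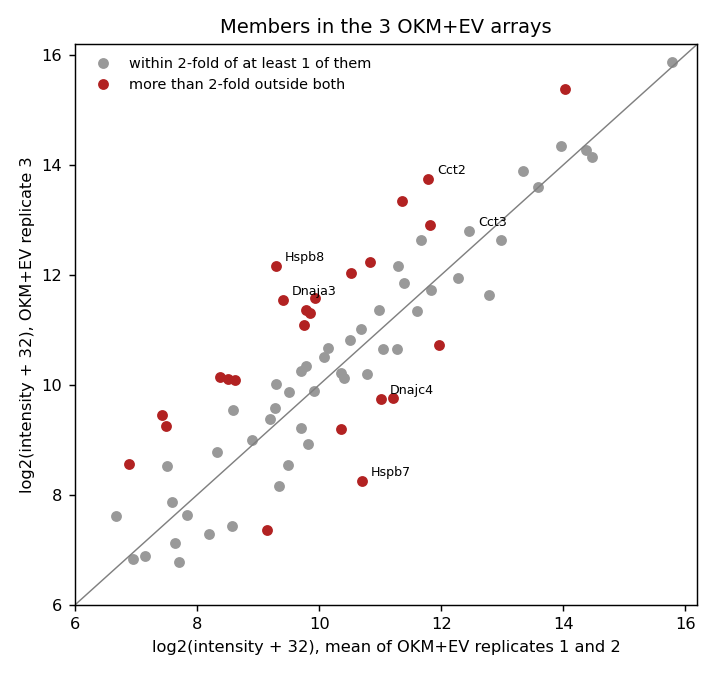
Each member in OKM+EV, with replicate 3 against the mean of replicates 1 and 2, both as log2(intensity + 32). Red points, 24 of 73, are members in which replicate 3 is more than 2-fold outside both other replicates. The share over all genes was 25.9%.

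SOX1, SOX3 and GMNN were each set against OKM+SOX2, since the SOX2 group was the one normalized with them, and the 3 comparisons share its 2 arrays. Over all arrays SOX1 passed in 4 members, 3 up and 1 down, or 5.56%, against 5.43% of all genes (3.49% higher and 1.94% lower). SOX3 passed in 10, 6 up and 4 down, or 13.9%, against 6.1% (3.31% higher and 2.79% lower). GMNN passed in 6, all up, or 8.33%, against 7.09% (4.33% higher and 2.76% lower). In the fit of this set alone 1, 0 and 0 passed, while 20, 24 and 15 members had an unadjusted p under 0.05 in limma over all arrays. The 1 was Dnaja3, which fell with SOX1. It had 456 and 488 in OKM+SOX1, against 1869.7 and 3502 in OKM+SOX2 (log2 fold change -2.36 ± 0.41 SE, adjusted p = 0.00107), and kept its call without each array. Dnaja3 had 2395 and 3749 in OKM+SOX3 and 2514 and 2330.2 in OKM+GMNN, both above SOX1.

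Several other values of this set differed with the array of OKM+SOX2 used. Its replicate 1 lay more than 2-fold below replicate 2 in 8 of 72 members, or 11.1%, against 5.43% of all genes. Bag6, which escorts tail-anchored proteins, had 9766 and 9323 in OKM+SOX3, against 198 and 5384 in OKM+SOX2. Hspe1 had 3145 and 3306 in OKM+SOX3 and 1596 and 2012 in OKM+GMNN, against 73.1 and 1844 in OKM+SOX2. Bag3 had 2293 and 2175 in OKM+GMNN, against 64.9 and 1915 in OKM+SOX2. In each of the 3 the low SOX2 array lay far below, and the high one inside the range of the other groups. The counts became 1 for SOX1, 3 for SOX3 and 0 for GMNN without OKM+SOX2 replicate 1, and 13, 18 and 12 without replicate 2. They were also 1 for SOX1 without OKM+SOX1 replicate 2, 2 and 4 for SOX3 without its replicate 1 and 2, and 0 for GMNN without either of its own arrays. Keratinocyte markers passed upward for 7 of 10 with GMNN, and their sum was 49115 to 51135 in OKM+SOX1, 50668 to 54574 in OKM+SOX3 and 102638 to 109892 in OKM+GMNN, against 35336 to 35466 in OKM+SOX2. Myeloid markers passed upward for 2 of 3 in each comparison, with sums of 1888 to 3470 in the 3 groups, against 198 to 734 in OKM+SOX2. The part of these markers was not tested.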

How the data were processed

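One-colour arrays of 49 mouse samples were analysed, and their number limits the precision of every value. The authors deposited linear intensity values per probe, and how these were corrected and normalized is not given in the sources used here. Sorted values and missing probes divided the arrays into 5 sets, taken as separate normalizations, and whether set medians differ by scaling or centring is unknown. Depth is not a property of these arrays. Of 19426 probes, 15539 carried 1 gene symbol in the platform table and 3887 were left out. Symbols were updated through RefSeq (13971 current, 1538 by synonym, 30 kept as given). Values were taken as log2(intensity + 32). The model of limma 3.58.1 (R 4.3.3) had 1 coefficient for each group, used the 49 arrays together and let the variance follow intensity, and Benjamini-Hochberg adjusted p over all genes of each of 17 comparisons, two-sided, with a threshold of 0.05. Genes were tested where every compared array had a value. A mean over lines weighted lines equally. The scripts were tested on simulated data, where the fit over all arrays made many false calls in sets B and C. Figures used matplotlib 3.10.9 and tables pandas 2.3.3.

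Alternatives were pseudocounts of 16 and 128, a filter at the 25th percentile, quantile normalization over the 9896 probes found on every array, the mean of a gene's probes, replicate numbers as a block, a fit of each set alone, and each array left out. Values in every array were given, per comparison, for at most 8 rises and 8 falls that passed, did not overlap and whose brighter side exceeded the median of all genes. For the iPSC lines the 5 members with the largest range were taken. Members outside this rule that are named with values were chosen after their values were seen, and from each other gene list up to 4 passing genes were named. The members and lists were chosen with earlier results of these data known. The rule that a rise or fall in sets B and C must pass both fits was added after the values were seen. No arrays held identical values.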

Additional observations from a re-analysis of the deposited data

Results flagged for a closer look

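Among the members that differed between the iPSC lines G6Gm, G3 and Dlx3RNAi by limma's F-test, the 5 with the widest ranges of line means are given for a closer look. The range was 1.75 log2 units in Dnajb4, 1.57 in Bag2, 1.19 in Hspb6, 1.16 in Dnajc1 and 1.02 in Cct3. G3 was the lowest line in Dnajb4, Bag2, Hspb6 and Dnajc1 and the highest in Cct3, and the call of Dnajc1 was lost without either G3 array. The summed fibroblast markers were lowest in G3 as well, at 12844 to 12848, against 34565 to 49126 in the other 2 lines, and their part was not tested. No group had the 4 arrays needed to look for a single array far from its group.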

How the results depend on the processing

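Counts of members called are limited by 2 or 3 arrays a group, 1 shared estimate of spread and the noise of sets B and C. Of 1574 alternative values of 131 member results, 1413 kept direction and side of the threshold, 160 kept direction and no longer passed, and 1 reversed: Dnajc3 in OKM+EV over MEF2 EV had a log2 fold change of 0.025 with the mean of its probes, and the cause was not tested. Called members never changed sign under quantile normalization where they had a value. Counts within 1.5 times are not listed. Quantile normalization, which drops genes, gave 3 for iPSC against R1, 1 for OCT4 and 5 for PAX1. Replicate numbers were not shown to pair samples (correlations of deviations -0.40 to 0.51, 2 shared numbers). With them as a replicate block the counts were 14 for iPSC against R1, 29 among iPSC lines, 26 for SKM+EV, 11 for OCT4, 15 for PAX1, 26 for CEBPa, 27 for HNF4a, 39 for OKM+EV, 12 for SOX1, 18 for SOX3 and 13 for GMNN. Fits of each set alone gave 22 for iPSC against R1, 38 among iPSC lines, 30 for SKM+EV, 14 for OCT4, 17 for GATA6, 22 for PAX1, 31 for CEBPa, 33 for HNF4a, 30 for GRB2, 2 for MIXL1, 3 for OKM+EV, 1 for SOX1, 0 for SOX3 and 0 for GMNN, the last 2 beside 24 and 15 members at an unadjusted p under 0.05 in limma over all arrays. Leaving out each array gave 35 to 49 for the lines, 4 to 8 for iPSC against R1, 10 to 15 among iPSC lines, 7 to 13 for SKM+EV, 1 to 2 for OCT4, 5 to 9 for GATA6, 4 to 11 for SOX7, 6 to 8 for PAX1, 19 to 25 for GATA4, 11 to 17 for CEBPa, 10 to 19 for HNF4a, 13 to 20 for GRB2, 0 to 1 for MIXL1, 15 to 39 for OKM+EV, 1 to 13 for SOX1, 2 to 18 for SOX3 and 0 to 12 for GMNN. The cause of the other shifts was not tested.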
